A study of Homo sapiens with 6 samples.

Results

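Messenger RNA of the pregnancy-specific glycoprotein (PSG) genes was higher, and that of 3 related CEACAM genes lower, in the osimertinib-resistant line HCC827OR than in its parent HCC827. The genes described are those rows of the deposited table whose name begins with PSG or CEACAM followed by a digit. This gave 13 of 4439 genes, 10 PSG and 3 CEACAM. RNA sequencing covered 3 libraries of HCC827, a human lung adenocarcinoma line with an activating mutation of the growth factor receptor EGFR that is labelled sensitive to osimertinib, and 3 of HCC827OR, labelled resistant. HCC827OR is what grew after HCC827 had been kept for 1 month at each of 6 rising doses (10 nM, 50 nM, 100 nM, 500 nM, 1 µM, 5 µM) of osimertinib, an inhibitor of mutant EGFR. No label tells if drug was still present at harvest, if the resistant line is 1 clone, or if libraries represent separate cultures.

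The table holds only genes that the authors had called different between these same 6 libraries, at an adjusted p below 0.05 and a log2 fold change of at least 1 in size. The contrast therefore chose the genes, and the values below describe them without testing them. By the authors' deposited table the member nearest to the p threshold was PSG4, with an adjusted p of 0.0256, and next came PSG7, with 0.0201. Both were listed at 0 in all parental libraries, so their folds are not printed. The smallest log2 fold change of a member in the authors' deposited table was that of PSG9, at 3.36. Genes beyond the threshold were not analysed here.

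PSG proteins are secreted glycoproteins built from immunoglobulin-like domains. The syncytiotrophoblast of the placenta releases them into maternal blood in large amounts, and PSG1 and several relatives are known to activate latent TGF-beta. CEACAM proteins share the same domains but sit in the cell membrane of epithelial and blood cells, where they act in adhesion and signalling. CEACAM5 (carcinoembryonic antigen, a serum tumour marker) and CEACAM6 are held by a lipid anchor, while CEACAM1 spans the membrane and its long form recruits the phosphatases SHP-1 and SHP-2.

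All 13 genes lie on chromosome 19 in the GENCODE release 29 annotation (GRCh38), found by gene ID. No source used here names the human build behind the deposited values. The 10 PSG genes lie on the minus strand in a block from 42721638 to 43269530, 548 kb long. PSG5 (ENSG00000204941) spans 43166256 to 43186536, and its neighbours are PSG2 at 43064211 to 43083045 and PSG4 at 43192702 to 43207299. CEACAM5 (ENSG00000105388) spans 41708585 to 41729798 and CEACAM6 (ENSG00000086548) 41750977 to 41772208, both on the plus strand. CEACAM1 (ENSG00000079385) spans 42507304 to 42561234 on the minus strand, between the other CEACAM genes and the PSG block.

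The windows before the gene starts were compared, for part of the genes. They are shown for 3 PSG genes, all higher in the resistant line, and for the 3 CEACAM genes, all lower. Each is the 250 bases before the annotated start in RefSeq (GRCh38.p14), 5′ to 3′ on the gene's strand, for the 6 of 13 genes that matched. RefSeq starts can differ from the outer ends of the GENCODE genes given above. Capitals mark the longest run found in all 3 windows of a family, which was 54 bases for PSG and 9 bases for CEACAM.
PSG5 (chr19:43186537-43186786, minus strand): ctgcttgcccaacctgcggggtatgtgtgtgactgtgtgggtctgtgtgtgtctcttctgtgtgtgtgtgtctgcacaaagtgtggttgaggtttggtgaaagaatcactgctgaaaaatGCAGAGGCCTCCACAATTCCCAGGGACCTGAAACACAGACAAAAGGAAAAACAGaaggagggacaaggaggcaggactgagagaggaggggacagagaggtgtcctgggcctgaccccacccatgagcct
PSG3 (chr19:42740482-42740731, minus strand): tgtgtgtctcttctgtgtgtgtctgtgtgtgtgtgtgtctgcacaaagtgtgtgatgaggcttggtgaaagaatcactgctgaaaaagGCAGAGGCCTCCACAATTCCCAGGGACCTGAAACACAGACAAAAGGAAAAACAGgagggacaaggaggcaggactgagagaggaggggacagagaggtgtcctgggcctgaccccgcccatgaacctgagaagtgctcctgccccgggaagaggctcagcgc
PSG4 (chr19:43205639-43205888, minus strand): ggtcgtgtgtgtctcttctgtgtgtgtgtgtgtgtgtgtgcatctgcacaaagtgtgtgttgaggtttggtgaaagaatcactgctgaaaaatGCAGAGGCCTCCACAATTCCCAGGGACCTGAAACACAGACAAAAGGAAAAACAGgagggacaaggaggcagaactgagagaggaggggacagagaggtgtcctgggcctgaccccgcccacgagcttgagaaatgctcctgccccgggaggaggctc
CEACAM6 (chr19:41755280-41755529, plus strand): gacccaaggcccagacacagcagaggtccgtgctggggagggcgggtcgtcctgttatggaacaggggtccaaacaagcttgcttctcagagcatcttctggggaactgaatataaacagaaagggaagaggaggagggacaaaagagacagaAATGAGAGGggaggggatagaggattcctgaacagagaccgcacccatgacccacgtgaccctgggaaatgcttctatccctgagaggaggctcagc
CEACAM5 (chr19:41708376-41708625, plus strand): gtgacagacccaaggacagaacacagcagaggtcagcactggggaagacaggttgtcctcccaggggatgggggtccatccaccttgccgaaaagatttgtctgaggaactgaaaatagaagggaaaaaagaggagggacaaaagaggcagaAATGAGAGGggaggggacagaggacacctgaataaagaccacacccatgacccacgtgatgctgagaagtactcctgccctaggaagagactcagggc
CEACAM1 (chr19:42528482-42528731, minus strand): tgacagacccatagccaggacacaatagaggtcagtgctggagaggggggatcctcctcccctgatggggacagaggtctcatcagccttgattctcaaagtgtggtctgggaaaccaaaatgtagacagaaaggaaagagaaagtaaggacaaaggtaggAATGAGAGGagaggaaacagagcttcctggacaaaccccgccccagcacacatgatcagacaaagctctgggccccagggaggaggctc
The 3 PSG windows were 95.0 to 96.3% identical over aligned bases, and the 3 CEACAM windows 72.0 to 78.5%. Between the families identity ran from 67.4 to 73.8%.

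Short motifs were searched on both strands of these windows. CCCACCC, a KLF-type motif, was found in the window of PSG5 and in none of the other 5, and in 18.2% of 35116 RefSeq windows of the same length. CCCGCCC, added after the windows were read, was found in those of PSG3, PSG4, CEACAM6 and CEACAM1 and in 31.5% of all windows. In PSG3 and PSG4 it lies at the site that reads CCCACCC in PSG5, with G in place of A. The PSG genes without a window were not searched. TATAAA was found in CEACAM6 only among the 6 (10.7% of all windows). GGGGCGGGG, which always contains CCCGCCC on the other strand, was found among them in CEACAM1 only (15.1% of all windows). There it lies at the same site as the CCCGCCC match. These are letter matches and no measure of binding.

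Normalized expression values are given in the deposited unit, which the file does not name. The smallest value above 0 of each gene was taken, and only genes where it lay below 1 were kept. Its median was 0.26 over the 253 kept genes whose longest transcript is up to 1000 bases. Over the 175 kept genes with more than 8000 bases it was 0.09. Values may be per length, but no source says so, and genes above that cut were left out. Levels of single genes are therefore ranked only within the PSG genes, whose longest coding sequences ran from 1005 to 1425 bases, a measure that leaves out untranslated parts. Sums over several genes are sums of deposited values, with no correction for length. Depth is unknown because the table holds no counts. Values summed over the table to between 115790 and 152065 per library. Parental library 3 stood apart from the other parental libraries: its log2 differences from them had an SD over genes of 0.60, against 0.36 and 0.39 for parental libraries 1 and 2 and 0.24 to 0.25 for the resistant ones. For PSG and CEACAM genes, results that rest on it are given with and without it, and for other genes only in some cases.

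Of 9 lung epithelial markers 7 were in the table and all 7 were lower in the resistant line, as were the CEACAM genes, which epithelia also express. By the authors' call 46.1% of the table's genes were lower. The summed level of the 7 markers ran from 6131 to 7638 in the parental and from 2046 to 2080 in the resistant libraries. None of the 7 was listed at 0. Among them were NKX2-1, a lung lineage factor, from 14 ± 1.73 to 0.253 ± 0.231, and EPCAM from 360.0 ± 38.6 to 12.4 ± 0.749 (mean ± SD, n = 3). KRT8 and SFTPB were not in the table. The part of such a shift in the results below was not tested. The extraction text in the labels speaks of retina, and of 7 retina markers 1 was in the table, PDE6A, at 0.28 or less in every library. None of 5 leukocyte markers was in the table, which says nothing of genes that did not differ. In bulk RNA, fewer cells of a type and less RNA per cell cannot be told apart.

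PSG5 carried most of the PSG signal. Its values were 0.71, 0.47 and 0.54 in parental libraries 1 to 3 and 27.64, 28.32 and 27.23 in resistant libraries 1 to 3. Every resistant library lay far above every parental one, and the 3 resistant values differed little, with a coefficient of variation of 1.99%. The means were 0.573 ± 0.123 and 27.7 ± 0.551 (SD, n = 3), a 48.4-fold difference, and 4.19 on the scale of log2(value + 1) (SE 0.13, limma), a scale that understates the change of low genes.

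PSG8 was the next highest PSG gene in the resistant line. It was listed at 0, 0.32 and 0 in the parental libraries and had 2.27, 1.4 and 2.13 in the resistant ones. The lines did not overlap, but its parental signal came from library 2 alone. The ratio of means was 18.1 with all libraries, 12.1 without parental library 1 or 3, and not defined without library 2, since PSG8 is then listed at 0 in the parental line.

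A set of 6 PSG genes, PSG1, PSG2, PSG4, PSG6, PSG7 and PSG11, was listed at 0 in all 3 parental libraries. The same was true of 3.18% of the table's genes. Each had a value above 0 in every resistant library. PSG2 had 0.78, 0.98 and 1.21, PSG11 had 1.08, 0.49 and 0.83, and PSG1 had 1.17, 0.65 and 0.55. PSG1 is the member best known from maternal serum. The remaining 3 were lower still, PSG4 at 0.3, 0.49 and 0.25, PSG7 at 0.06, 0.32 and 0.45, and PSG6 at 0.35, 0.19 and 0.25. No fold is given for these genes, because none can be formed against values listed at 0 without counts.

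PSG9 and PSG3 completed the family. PSG9 had 0.11, 0.1 and 0 in the parental and 0.74, 0.7 and 0.32 in the resistant libraries, an 8.38-fold ratio of means that was 5.59 without parental library 3. PSG3 was listed at 0, 0.04 and 0 against 0.34, 0.28 and 0.47. Its ratio of 27.2 rested on the single parental value of 0.04, and it was listed at 0 in the parental line without library 2. In both genes the 3 resistant values lay above the 3 parental ones.

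**Figure D1:**
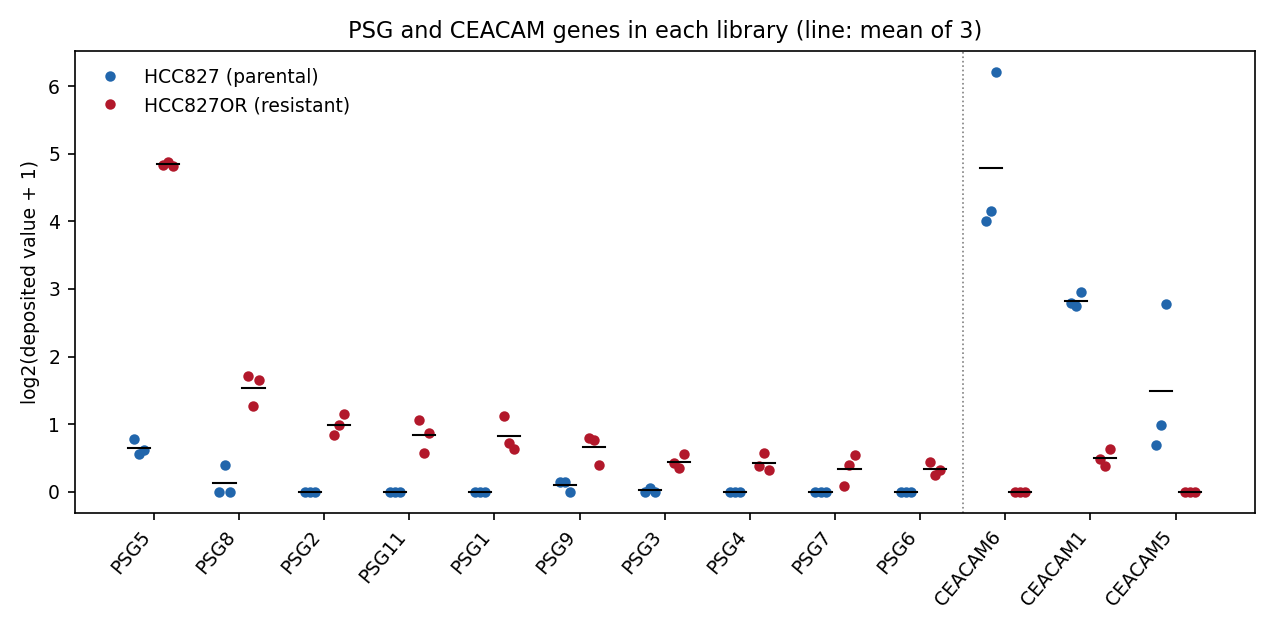
Values of the 13 genes in each library as log2(deposited value + 1), blue for HCC827 and red for HCC827OR, with black lines at the means of 3 libraries. PSG5 sits near 28 in all resistant libraries and below 1 in the parental ones, the other 9 PSG genes are low but above 0 in every resistant library, and the CEACAM genes are the other way round, with parental library 3 (73.3) far above the others for CEACAM6.

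By the authors' call all 10 PSG genes were higher in the resistant line, as were 53.9% of the table's genes. In all 13 members the libraries of the lines did not overlap, which held for 95.2% of the table. By direction this was 51.8% of the table higher, as in 10 members, and 43.4% lower, as in 3. Limma was applied where 3 or more libraries reached a value of 1, and 4 of the 13 members passed this filter: PSG5 and PSG8 through the resistant libraries, CEACAM6 and CEACAM1 through the parental ones. Limma called 4 of those 4 at an adjusted p below 0.05, and 97.5% of the 3332 genes tested. It called 2 PSG genes higher (52.5% of genes tested) and 2 CEACAM genes lower (45%). These counts are printed for completeness, since the table was picked on the same contrast.

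Ordered by the resistant mean, the PSG genes ran PSG5, PSG8, PSG2, PSG11, PSG1, PSG9, PSG3, PSG4, PSG7 and PSG6. PSG5 lay above PSG8, and PSG8 above PSG2, without overlap of their 3 resistant values. From PSG2 downwards each gene's values overlapped those of the next, so that order is not firm. The 9 genes below PSG5 reached 0.95 to 6.97% of its level, with coefficients of variation from 21.7 to 71.8%.

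Values were also summed over the family, since reads may have been split among its copies. Such a sum can still depend on transcript lengths and on how reads matching several genes were handled. Over the 10 genes, PSG signal was 0.82, 0.93 and 0.54 in the parental libraries, against 34.7, 33.8 and 33.7 in the resistant ones. That is a 44.6-fold ratio of means. PSG5 made up 79.6, 83.7 and 80.8% of the resistant sums. Without PSG5, the remaining 9 genes summed to 0.11, 0.46 and 0 against 7.09, 5.5 and 6.46.

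Near-identical sequence limits what can be said of the single PSG genes. Their longest coding sequences were 89.4 to 95.1% identical over aligned bases (45 pairs, median 93.2%). PSG8 was most like PSG1 and PSG3, at 95.1% each. The longest exact run, 186 bases, was shared by PSG1 and PSG8 and by PSG2 and PSG11. PSG9 and PSG11 were the least alike. The 3 CEACAM coding sequences were 82.0 to 90.9% identical, and PSG and CEACAM sequences 72.5 to 77.1%, with no exact run over 36 bases between the families.

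**Figure D2:**
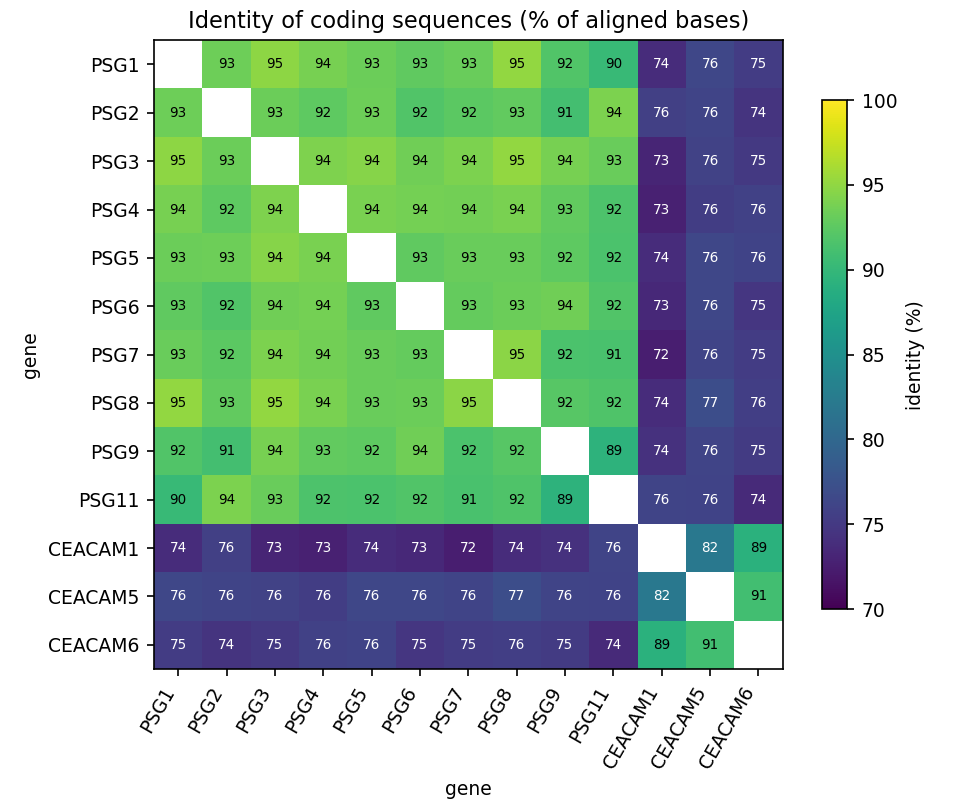
Pairwise identity of the longest annotated coding sequences of the 13 genes, in percent of aligned bases, as numbers and colours from 70 to 100. The 10 PSG genes form a block between 89.4 and 95.1%, and the CEACAM genes differ from them at 72.5 to 77.1%.

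Exact windows of the annotated transcripts were looked up in those of all other genes, on the sense strand. Of windows of 50 bases, 15.5 to 36.6% of those of the 9 PSG genes other than PSG5 were also found in another gene, and 17.2% of those of PSG5. PSG8 (36.6%) and PSG9 (34.6%) shared the most. At 100 bases the shares were 10.7% for PSG8, 15.3% for PSG9 and 5.33% for PSG5, and at 150 bases 2.39, 11.1 and 1.57%. Most of the share of PSG9 at 150 bases (10.1%) was with CEACAMP10, a pseudogene whose annotation overlaps it. Neither the read length nor the treatment of reads that match several genes is stated.

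Sharing with PSG5 was also counted alone. Windows of 50 bases shared with PSG5 made up 1.14% (PSG7) to 5.93% (PSG3) of those of the other genes. PSG3, which shared the most with PSG5, stood at 1.31% of its level, while PSG8 shared 2.87% and stood at 6.97%. PSG7 shared 1.14% and stood at 0.998%. The part of shared reads in the 9 lower genes was not tested.

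**Figure D3:**
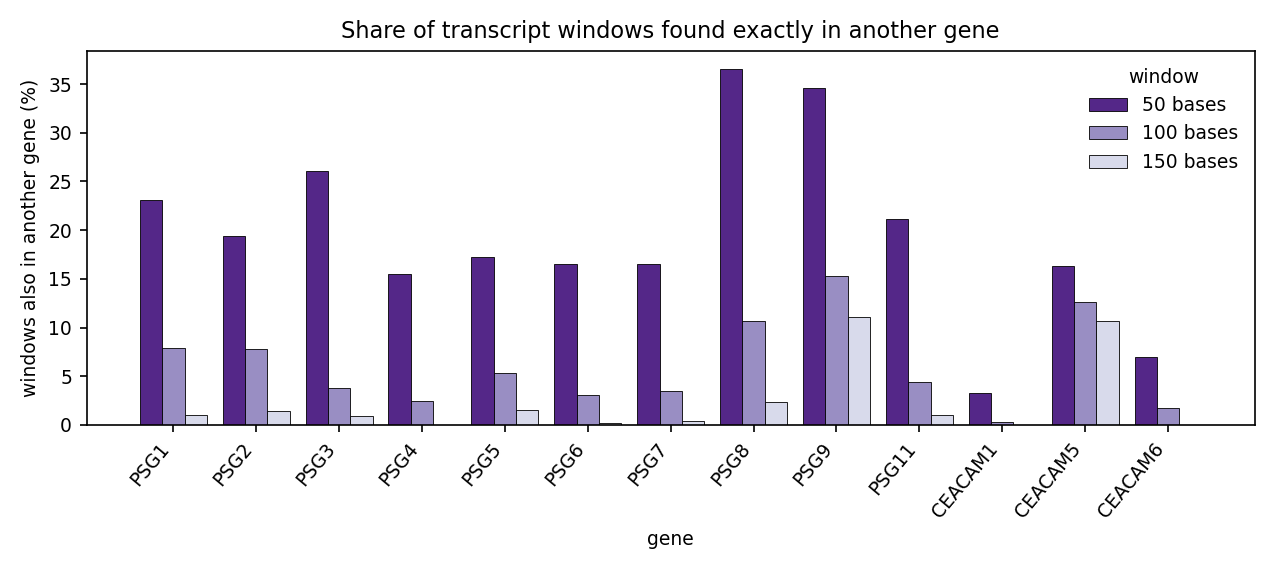
Percent of each gene's distinct transcript windows of 50, 100 and 150 bases that occur exactly in a transcript of another gene in GENCODE 29. Bars start at 0, and PSG8 and PSG9 stand highest at 50 bases (36.6 and 34.6%), while CEACAM1 is lowest (3.29%).

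CEACAM6 had values above 0 in the 3 parental libraries only. Its values were 15.11, 16.77 and 73.3 in the parental libraries, and it was listed at 0 in all 3 resistant libraries, as were 2.93% of the table's genes. The parental mean was 35.1 ± 33.1 (SD, n = 3), and 15.9 without parental library 3, which was 4.60 times the mean of the other parental libraries. The lines did not overlap with or without it.

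CEACAM5, the closest relative of CEACAM6 among the 3 (90.9% identical in coding sequence), had 0.61, 0.99 and 5.85 in the parental libraries and was listed at 0 in all resistant ones. Here too parental library 3 was high, 7.31 times the mean of the other parental libraries, and the parental mean of 2.48 ± 2.92 was 0.80 without it. Of 3107 genes with a mean of at least 0.5 in parental libraries 1 and 2, 5 were raised in library 3 by as much as CEACAM5, itself included, and 44 by as much as CEACAM6, with a median of 1.12 over all. The same ratio was 1.15 for CEACAM1 and 0.915 for PSG5. What sets parental library 3 apart was not tested.

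CEACAM1 was lower in the resistant line but above 0 in each library. It had parental values of 5.9, 5.74 and 6.72 and resistant values of 0.4, 0.3 and 0.55. The values of a line lay close together, and the lines stood well apart, at 6.12 ± 0.526 and 0.417 ± 0.126 (SD, n = 3), a 14.7-fold difference. On the log2(value + 1) scale this was -2.33 (SE 0.14, limma). All 3 CEACAM genes were lower by the authors' call, as were 46.1% of the table's genes.

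Summed, the CEACAM signal was 21.6, 23.5 and 85.9 in the parental libraries, against 0.40, 0.30 and 0.55 in the resistant ones, where all of it came from CEACAM1. The ratio of means was 105, and 54.1 without parental library 3. CEACAM5 shared 16.3% of its 50-base windows with other genes, nearly all of them (15.2%) with the gene model AC243967.1, which overlaps both CEACAM5 and CEACAM6, and 1.75% with other members.

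GENCODE 29 annotates 10 protein-coding PSG genes, and all 10 were in the table. Of 12 protein-coding CEACAM genes 3 were in it. The other 9 (CEACAM3, CEACAM4, CEACAM7, CEACAM8, CEACAM16, CEACAM18, CEACAM19, CEACAM20 and CEACAM21) were not analysed here. In the PSG block 12 of 19 annotated genes were in the table, and all 12 were higher. Over all of chromosome 19 the table held 268 of 2959 annotated genes, and 53.9% of all genes in the table were higher. Besides the 10 PSG genes, the 12 held AC004784.1, an antisense RNA that overlaps several PSG genes, and CEACAMP10. Both were listed at 0.07 or less in the parental libraries. AC004784.1 had 0.5, 0.63 and 0.91 and CEACAMP10 0.79, 0.2 and 0.31 in the resistant libraries. Whether counting used strand is not stated. Without it, reads of the antisense RNA and of the PSG genes it overlaps cannot be told apart.

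Between CEACAM5 and CEACAM1 the table's genes went both ways. Of 8 in that stretch of 853 kb 4 were higher and 4 lower, and the lower ones were the 3 CEACAM genes and CXCL17, a mucosal chemokine 64.3 kb from CEACAM1. CXCL17 had 1.41, 0.94 and 1.11 in the parental libraries and was listed at 0 in the resistant ones. RABAC1, a Rab-binding membrane protein gene 184 kb from CEACAM6, was higher, at 45.2 ± 7.55 and 124 ± 5.55. TMEM145, 182 kb from CEACAM1, had 0.21, 0.36 and 1.55 against 3.15, 4.73 and 3.86, or a mean of 0.285 in the parental line with library 3 left out. AC010616.2 was 0.24 or less in every library, and the lines overlapped.

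The antisense RNA LIPE-AS1, which overlaps CEACAM1 on the other strand, had 0.69, 4.01 and 5.63 in the parental and 6.15, 6.37 and 7.35 in the resistant libraries, the direction opposite to that of CEACAM1. Limma did not call it, and it lay higher in all 3 resistant libraries. On the far side of the PSG block CD177, a neutrophil surface protein gene 84.1 kb from PSG9, was at 0.14 ± 0.07 and 0.863 ± 0.0723. Over the whole stretch from CEACAM21 to CEACAM18, 42 of 70 genes in the table were higher, and over all of chromosome 19 155 of 268 (57.8%). Without the PSG and CEACAM members these were 32 of 57 (56.1%) and 145 of 255 (56.9%), beside 53.9% of the whole table.

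**Figure D4:**
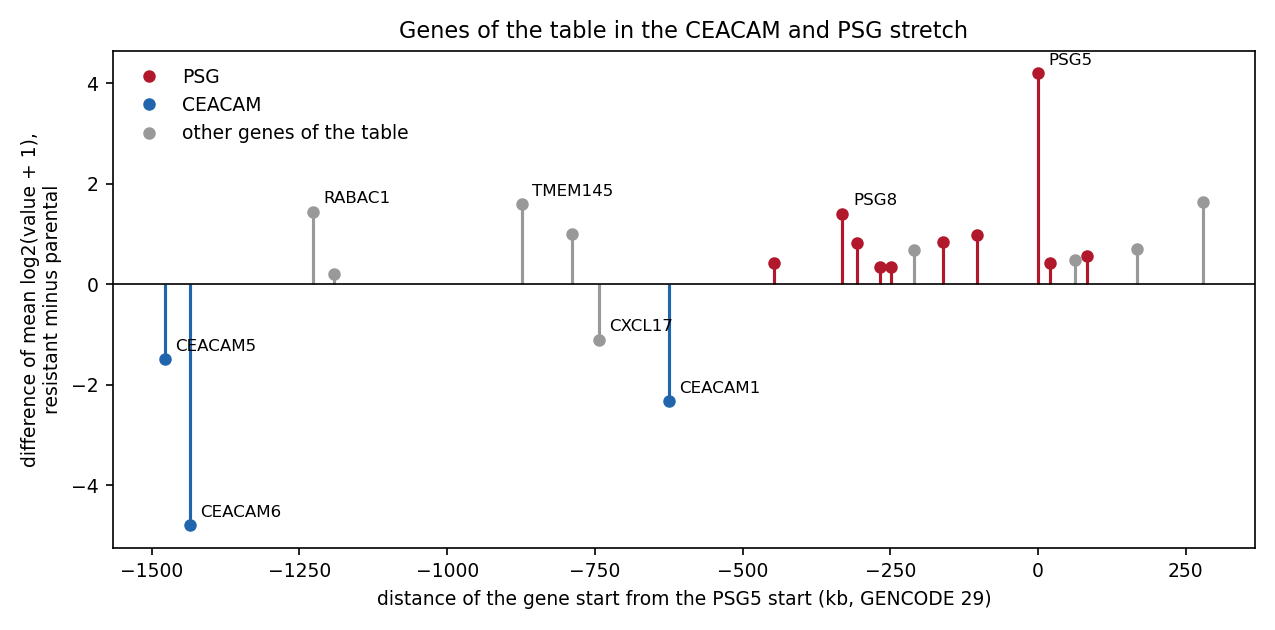
Difference of mean log2(value + 1), resistant minus parental, for each gene of the table around the PSG block, against the distance of its start from that of PSG5 in kb. All 10 PSG genes point up, with PSG5 at 4.19, while CEACAM6, CEACAM1, CEACAM5 and CXCL17 point down among neighbours that point up.

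Genes known from trophoblast, the placental cells that make PSG proteins, were described as a list of 40. Of these 9 were in the table, 6 higher and 3 lower in the resistant line. Of the 6 that passed the filter limma called 5 higher and 1 lower, in a table where it called 97.5% of genes tested (52.5% higher and 45% lower). PAPPA and ADAM12 passed through the resistant libraries alone and PEG10 through the parental ones. The median was 0.90 on the log2(value + 1) scale against 0.74 over all genes tested, a background that was -0.69 with the filter at a value of 5. PAPPA, a protease that cleaves IGF-binding proteins, had 0.24, 0.01 and 0.06 against 3.99, 3.39 and 3.66. The syncytin receptor and lipid transporter MFSD2A was at 1.42 ± 0.0503 and 3.5 ± 0.43, and the metalloprotease ADAM12 at 0.213 ± 0.0907 and 1.28 ± 0.227.

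PLAC1, a placental surface protein, had 2.58, 2.4 and 0.49 against 5.08, 4.76 and 6.17, parental library 3 lying below the others. CGB8, a subunit gene of chorionic gonadotropin with near-identical copies and therefore uncertain, was at 1.09 ± 0.481 and 2.73 ± 0.477. KISS1 was listed at 0, 0 and 0.13 against 1.46, 0.26 and 0.64. The exception among tested genes was PEG10, an imprinted gene needed for placental development, which had 20.53, 20.25 and 16.08 in the parental and 0.12, 0.01 and 0.33 in the resistant libraries. GCM1, a transcription factor of the syncytiotrophoblast, was 0.18 or less in every library and lower in the resistant line, and the progenitor factor TP63 was at 0.607 ± 0.235 and 0.0733 ± 0.0635. The other genes of the list, among them the hormone genes CGA, CSH1 and CSH2 and the aromatase gene CYP19A1, were not in the table. The summed level of the 9 was 19.7 to 26.9 in the parental and 15.8 to 19.3 in the resistant libraries. PEG10 made up most of the parental sums, so the lower resistant sums do not describe the list, of which 6 genes were higher. The part of these 9 genes in the PSG values was not tested.

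Proteins known to bind or act with PSG or CEACAM proteins were described as a list of 25, of which 9 were in the table, 7 higher and 2 lower. Limma called 6 higher and 2 lower of 8 tested, as it called 97.5% of all genes tested (52.5% higher and 45% lower). The median was 2.39 against the 0.74 over all genes tested. LGALS1, the PSG1-binding lectin galectin-1, was at 159 ± 32.7 and 2260 ± 29.6. Among integrin subunits reported to bind PSG1, ITGA5 was at 24.5 ± 11.8 and 139 ± 0.365, with a parental mean of 17.8 without parental library 3, and ITGB3 at 1.22 ± 0.159 and 28.1 ± 1.31. ITGA2B, the partner of ITGB3 in platelets, was listed at 0.02, 0 and 0.02 against 0.79, 0.21 and 1.05.

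Of the TGF-beta pathway genes of the list only TGFB2 and TGFBR1 were in the table, and TGFB1, TGFB3, TGFBR2, SMAD2 and SMAD3 were not. The ligand TGFB2 had 15.94, 15.31 and 7.87 against 131.54, 134.17 and 144.1, and the receptor TGFBR1 4.46, 4.59 and 5.65 against 25.41, 26.4 and 27.37. FLNA, an actin cross-linker that binds CEACAM1, was at 393 ± 54.8 and 1136 ± 38.1. The lower genes were CD9, a tetraspanin that in the mouse serves as receptor for a Psg protein, at 365 ± 14.6 and 113 ± 2.99, and the kinase LYN, at 16.2 ± 2.85 and 5.77 ± 0.424. The lines did not overlap in any of the 9 genes, which held for 95.2% of the table.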

How the data were processed

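Expression was measured by RNA sequencing in 3 libraries each of HCC827 and HCC827OR, grouped by title. The authors deposited, per human Ensembl gene, an expression signal for each library, whose unit and normalization the file headers do not name. Beside it the authors gave their own comparison as a fold (ratio), its log2 and a p-value, raw and adjusted. The submitters' processing notes list Bowtie 0.12.2 and mouse build mm8. Since the gene IDs are human, neither was taken as a step behind these values, and the aligner and build are otherwise not given in the sources used here.

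All 6 library columns were used as deposited. The whole table was fitted on log2(value + 1) by limma 3.58.1 (R 4.3.3, variance trend), keeping genes where 3 or more libraries reached 1. Adjustment was by Benjamini-Hochberg, with a threshold of 0.05. The fit was checked on simulated data. Folds are ratios of group means. All PSG and CEACAM rows, up to 8 nearest other genes of the table, and every member of the placental and partner lists in it are named. Members and lists were chosen with earlier results of these data known. Coding sequences and windows came from GENCODE 29 (longest coding sequence per gene, Biopython 1.88 alignment), because no protein table was used here. Promoter windows came from RefSeq. P-values would measure only the spread between libraries, which may be technical, and none of these is printed for members. The 2 given are from the authors' deposited table.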

Additional observations from a re-analysis of the deposited data

How the results depend on the processing

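Of the 13 members, 115 values under alternatives stayed within the spread between libraries, 15 moved further and none changed direction. Of those 15, 13 used a pseudocount of 0.1, the others quantile normalization (PSG2 and PSG3). Leaving out 1 of 3 libraries cannot shift a mean by more than its SE, and the replicate block leaves differences unchanged. Values under these alternatives therefore could not have moved, and make up most of the 115. Nor could they change direction, since the lines did not overlap in any of the 13 genes. They are no sign of stability. Limma called 13 members (10 PSG) without a filter on low values in place of 4 (2 PSG), when it called 4197 of 4439 genes in all. With the filter at 5 it called 1 PSG gene, the 1 tested, and 1999 of 2020 genes in place of 3249 of 3332, so fewer were tested. The log2 difference of the summed PSG value was 4.32, and 5.34 with a pseudocount of 0.1, 4.18 with quantile normalization, 4.19 over genes passing the filter at 1 (added after seeing the data) and 4.19 at 5. For the summed CEACAM value it was -4.69, and -6.12 with a pseudocount of 0.1. Leaving out each library gave 4.23 to 4.39 for PSG, -5.03 to -4.06 for CEACAM, 3160 to 3266 genes called, and 4 members (2 PSG, 2 CEACAM) each time. The median log2 difference over genes tested was 0.74, and 0.70 after median scaling, 0.52 after quantile normalization, 1.08 with a pseudocount of 0.1, 0.32 without a filter and -0.69 with the filter at 5, where its sign turned. With the replicate number as a block 3258 genes and the same number of members (4) were called. Deviations of same-numbered libraries from the mean of their line correlated at 0.03, 0.03 and -0.03. Taken from 3 libraries per line, these values cannot tell whether such libraries shared a culture or a preparation. Depth is unknown, so no limit of detection can be put on values listed at 0.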
